A study of Mus musculus with 15 samples.

Results

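The 44 genes described here encode the proton pump of lysosomes (15 genes), lysosomal membrane proteins and enzymes (13), the TFEB family of transcription factors (2) and the autophagy machinery (14). They were taken by symbol from the gene-name column of both deposited count tables. All 44 were found among the 56967 gene names that both tables share, and all 44 had enough counts to be among the 19051 genes tested.

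Messenger RNA was sequenced in 15 libraries of cells labelled MDA-MB-468, a long-established breast carcinoma line, with 3 libraries in each of 5 groups. NC carried a control hairpin, shSHCBP1_1 and shSHCBP1_2 carried different short hairpin RNAs against SHCBP1, and shTMEM45A set 4 and set 2 carried different hairpins against TMEM45A. A short hairpin RNA is processed in the cell into a small RNA that directs the breakdown of a matching transcript. The shTMEM45A groups are named after their columns: set 2 is the group labelled shTMEM45A_2, and set 4 was taken as shTMEM45A_1 by elimination. No other agent is given for any group, and the labels name the hairpins without a vector. The NC and shSHCBP1 libraries share 1 deposited table and the shTMEM45A libraries have another, so in every comparison of shTMEM45A with NC the table and the target cannot be told apart. Nothing in the labels tells whether the 3 libraries of a group are separate cultures. The p-values therefore cover the spread among these libraries alone, which may be technical.

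Library totals ran from 13780294 to 16484000 counts. The organism in the labels is the mouse, whereas both tables carry human gene symbols. SHCBP1 was not lower in the libraries labelled shSHCBP1, with a log2 change of 0.05 ± 0.06 (SE) against NC (edgeR adjusted p = 0.596). Below, shSHCBP1 therefore stands for the libraries so labelled, not for a lowered transcript. TMEM45A fell by 0.52 ± 0.09 on the log2 scale in shTMEM45A (edgeR adjusted p = 3.3e-06), a comparison in which 41.3% of all genes tested were called lower. SHCBP1 was called higher in the same comparison, by 0.35 ± 0.06 (edgeR adjusted p = 1.9e-05). Of 16 markers of the labelled line, 9 had enough counts to be tested. The basal keratins KRT5, KRT6A, KRT6B and KRT16 had 0 counts in all 15 libraries, which allows at most 0.218 CPM of the unscaled library total in any of them. EGFR, which is amplified in that line, was detected at 15.2 to 17.5 CPM in NC and at 6.96 to 9.62 CPM in shTMEM45A set 4. Summed over all 16 markers, the level was 161 to 167 CPM in NC, 179 to 190.0 in shSHCBP1_1, 180.0 to 183 in shSHCBP1_2, 329.6 to 373 in set 4 and 343 to 380.1 in set 2. KRT8 and KRT18, keratins of simple epithelia, made up most of that sum and of its rise: KRT8 stood at means of 79.3 CPM in NC, 168.0 in set 4 and 162.7 in set 2, and KRT18 at 44.6, 144.1 and 157.4. CDH1, like EGFR, went the other way, with means of 12, 7.91 and 7.16 CPM. A list of 7 genes that mark an embryonic kidney line, NEFL and LIN28B among them, summed to 515 to 533 CPM in NC, 475 to 497 in shSHCBP1_1, 432 to 458 in shSHCBP1_2, 235 to 262 in set 4 and 209 to 226 in set 2, with CRABP1 at 0 in all 15. The neurofilament genes NEFL and NEFM carried most of that sum and of its fall, with NEFM at 252 to 259.6 CPM in NC and at 69 to 78.1 in set 2. INA was higher than in NC in shSHCBP1_1, shSHCBP1_2 and set 2, at 41.8 to 44.4 CPM in NC and 58.4 to 60.9 in shSHCBP1_1, and LIN28B was higher in shSHCBP1_2, at 43.5 to 44.6 against 34.1 to 38.0. Macrophage markers matter because macrophages are rich in lysosomes. Over 7 genes they summed to 0.484 to 0.833 CPM in NC and to 4.14 to 6.34 CPM in set 2. CD14 alone carried the difference, at 0.276 to 0.35 CPM in NC and 3.78 to 6.34 in set 2. It was also above NC in shSHCBP1_1 (0.755 to 1.22), shSHCBP1_2 (1.85 to 2.64) and set 4 (2.27 to 4.5). PTPRC was at 0 in every library, CD68, LYZ, CD163 and TYROBP were at or near 0 throughout, and CSF1R was at a mean of 0.279 CPM in NC and 0.0484 in set 2. Fibroblast markers summed over 6 genes to 46.4 to 49.5 CPM in NC, 47.0 to 52.8 in shSHCBP1_1, 48.6 to 51.2 in shSHCBP1_2, 29.6 to 34.8 in set 4 and 30.6 to 32.2 in set 2. Nearly all of that sum was COL1A1, at 45.5 to 48.5 CPM in NC and 29.9 to 30.9 in set 2, and the other 5 genes were each under 1 CPM in every library. The part of these lists in the results below was not tested, and in bulk RNA fewer cells of a type and less RNA per cell cannot be told apart.

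Lysosomes are membrane-bound compartments in which acid hydrolases break down proteins, lipids, glycogen and glycolipids. Their acidity comes from the vacuolar proton pump, a rotary enzyme whose V1 sector in the cytosol splits ATP and drives proton flow through the V0 sector in the membrane. Autophagy delivers cytoplasm to lysosomes inside a double membrane whose growth needs a kinase complex, a lipid kinase complex, vesicles that carry ATG9A, and the attachment of ATG8 proteins such as LC3 to lipid. TFEB and TFE3 activate lysosomal and autophagy genes when they enter the nucleus, and the kinase mTORC1 keeps them in the cytosol when nutrients are plentiful. Expression is given as CPM after TMM scaling, that is, as a share of the rescaled total of counts, in each library, and changes are log2 changes with the standard error (SE) from the fit.

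In shSHCBP1 against NC the members moved little and in opposite directions by role: genes of the proton pump tended to be higher and those of lysosomal enzymes lower. At an edgeR adjusted p under 0.05, 10 of the 44 members were higher and 11 lower. Over all 44, called or not, log2 changes ran from -0.68 to 0.44, with none past 2-fold. The lowest value was that of GABARAP, which was not called. Among all genes tested, 15.2% were called higher and 15.9% lower, so the members' shares, 22.7% and 25.0%, stood above the background in both directions. That background was not matched to the members' count levels, and the members were chosen with earlier results of these data known. Of 120 other tested genes of the same pathways, 15.8% were higher and 18.3% lower. The median log2 change of the 44 members was -0.04, beside 0.01 for all genes. Of the 13 members of the lysosome 0 were higher and 7 lower, and of the 15 pump genes 7 were higher and 1 lower. These counts depended on the scaling: 6 members higher and 18 lower were called with RLE size factors, and 18 higher and 4 lower with total-count scaling. The same settings moved the higher share of all calls from 48.8% to 32.8% and to 83.0%, and the median change of all genes to -0.06 and 0.16. ATG5, ATP6V0B, ATP6V0D1, ATP6V1E1 and ATP6V1H among the rises and CTSB, GAA, HEXA and PSAP among the falls passed under every scaling, in DESeq2 and without each library in turn.

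In shTMEM45A against NC the changes were many and large, among the members as among all genes. ATG9A, the lipid scramblase of autophagosome precursor vesicles, fell 25.3-fold and BECN1, a subunit of the autophagy lipid kinase, 4.57-fold. ATP6V0E1, CTSD and CD63 rose 4.01-fold, 3.22-fold and 2.85-fold. Of the 44 members 24 were higher and 15 lower, or 54.5% and 34.1%, where 37.3% of all genes tested were called higher and 41.3% lower. Over 2-fold, 9 of the 44 members were higher and 4 lower, beside 3728 higher and 4026 lower of the 19051 genes tested. The members' median log2 change was 0.28, beside -0.05 for all genes. Of the rises 21, and of the falls 13, passed under every scaling, in DESeq2 and without each library in turn. The dot plot of changes by role shows both comparisons.

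**Figure D1:**
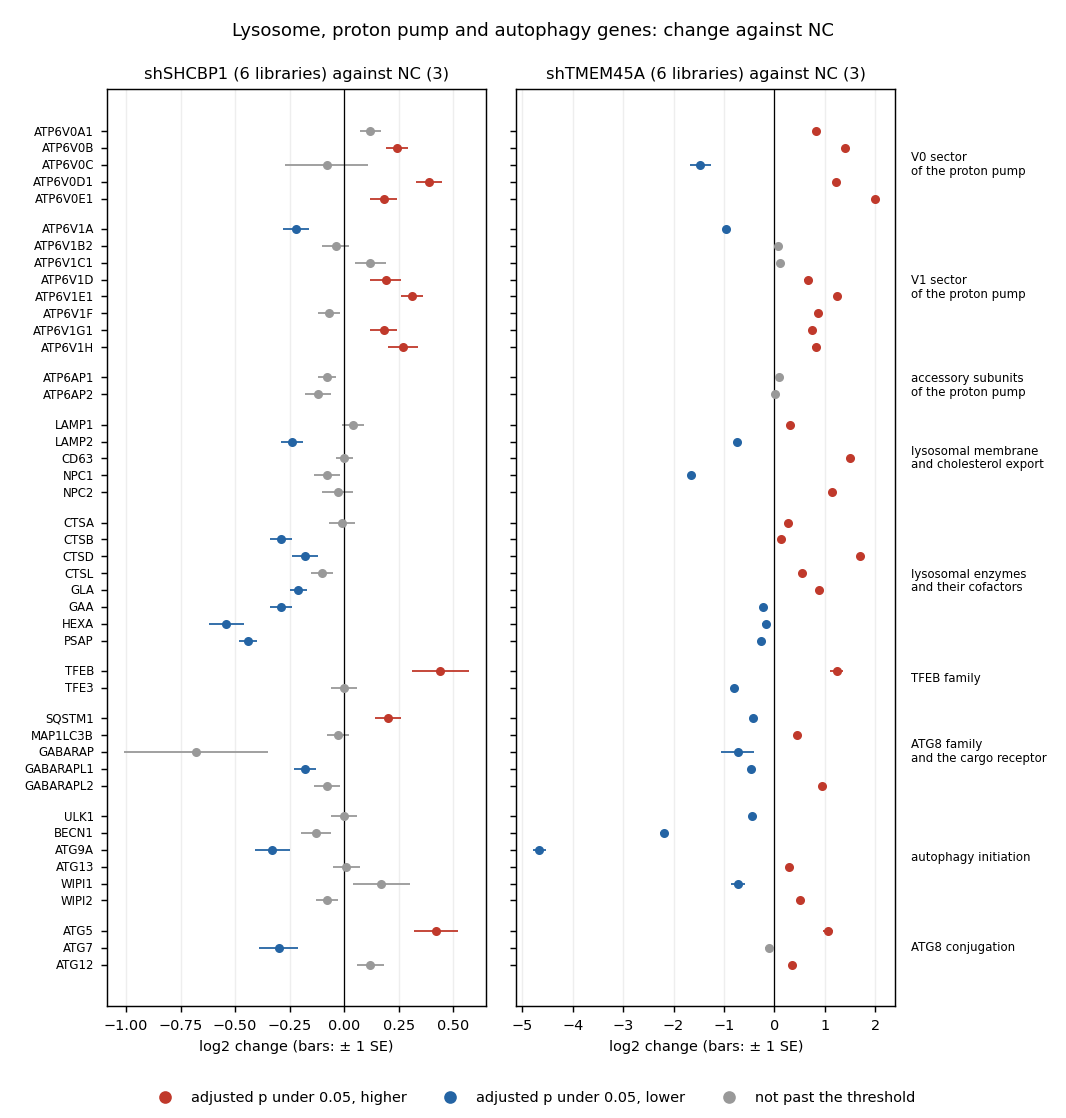
Log2 change of each of the 44 members (points, bars ± 1 SE) in shSHCBP1 (left) and shTMEM45A (right) against NC, grouped by role and coloured by edgeR's call; the horizontal scales differ. At left all points lie between -0.68 and 0.44, with the lysosomal enzymes at or below 0; at right ATG9A, 25.3-fold lower, lies far from the other members.

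The V0 sector forms the membrane ring and channel of the pump, and 5 of its genes were measured. In shSHCBP1, 3 rose and none fell, with a median log2 change of 0.18. In shTMEM45A, 4 rose and 1 fell, with a median of 1.22. ATP6V0D1 reached 61.8, 52.6 and 66.3 CPM in the NC libraries, 76.7, 77.6 and 75.5 in those of shSHCBP1_1 and 77.6, 85.9 and 82.0 in those of shSHCBP1_2. For ATP6V0D1 the values were 135, 132 and 124 CPM in shTMEM45A set 4 and 156, 139 and 156 in set 2. This gene encodes the d subunit that couples the ring to the central stalk, and the NC, shSHCBP1 and shTMEM45A libraries did not overlap, NC being lowest and shTMEM45A highest. Its log2 change was 0.39 ± 0.06 (edgeR adjusted p = 9.5e-06) in shSHCBP1 and 1.22 ± 0.06 (edgeR adjusted p = 2.0e-17) in shTMEM45A. ATP6V0E1 stood at 36.1, 34.2 and 34.1 CPM in NC, at 37.1, 35.6 and 36.2 in shSHCBP1_1 and at 43.6, 40.2 and 45.4 in shSHCBP1_2. In shTMEM45A, ATP6V0E1 was at 128, 127 and 134 CPM in set 4 and at 147, 149 and 154 in set 2. ATP6V0E1, a small membrane subunit, thus separated every shTMEM45A library from all others, while NC and shSHCBP1_1 overlapped. The change was 2.0 ± 0.06 (edgeR adjusted p = 8.5e-24) in shTMEM45A and 0.18 ± 0.06 (edgeR adjusted p = 0.0137) in shSHCBP1, the latter not passing without NC replicate 2 or NC replicate 3, nor with RLE scaling or in DESeq2. ATP6V0C reached 6.18, 6.37 and 5.60 CPM in the NC libraries, 4.58, 3.86 and 6.35 in those of shSHCBP1_1 and 6.11, 7.48 and 6.45 in those of shSHCBP1_2. For ATP6V0C the values were 4.05, 1.91 and 2.21 CPM in shTMEM45A set 4 and 1.74, 1.97 and 1.45 in set 2. It encodes the proteolipid of the ring, and all 6 shTMEM45A libraries lay below NC, the highest of them just above the lowest shSHCBP1_1 library. ATP6V0C fell by 1.47 ± 0.21 (edgeR adjusted p = 2.2e-07) in shTMEM45A, on only 20 to 119 counts per library, while the other subunits of the sector rose. Its pseudogenes ATP6V0CP1 and ATP6V0CP4 held 4.27% and 3.28% as many counts, and reads may be divided between them. ATP6V0B stood at 129, 128 and 132 CPM in NC, at 139, 144 and 145 in shSHCBP1_1 and at 164, 156 and 168 in shSHCBP1_2. In shTMEM45A, ATP6V0B was at 325, 325 and 299.9 CPM in set 4 and at 377, 339 and 398 in set 2. ATP6V0B, another ring subunit, was highest in the shTMEM45A libraries and above NC in every shSHCBP1 library, with changes of 0.24 ± 0.05 (edgeR adjusted p = 0.000296) and 1.40 ± 0.05 (edgeR adjusted p = 1.5e-21). ATP6V0A1, the channel subunit, rose by 0.82 ± 0.05 (edgeR adjusted p = 4.3e-15) in shTMEM45A, and in shSHCBP1 its change was 0.12 ± 0.05 (edgeR adjusted p = 0.0826).

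The V1 sector holds the ATP-splitting head and the stalks that hold it to the membrane. Of 8 genes, 4 rose and 1 fell in shSHCBP1, with a median log2 change of 0.15, and 5 rose and 1 fell in shTMEM45A, with a median of 0.70. ATP6V1E1 reached 85.5, 83.6 and 78.9 CPM in the NC libraries, 100.2, 98.7 and 99.2 in those of shSHCBP1_1 and 115, 101 and 100.3 in those of shSHCBP1_2. For ATP6V1E1 the values were 186, 185 and 181 CPM in shTMEM45A set 4 and 205, 204 and 214 in set 2. ATP6V1E1 belongs to the outer stalks, and the NC, shSHCBP1 and shTMEM45A libraries formed separate ranges in that rising order. The changes were 0.31 ± 0.05 (edgeR adjusted p = 1.4e-05) and 1.24 ± 0.05 (edgeR adjusted p = 5.6e-20). ATP6V1A stood at 106, 112 and 101 CPM in NC, at 90.6, 92.7 and 96.9 in shSHCBP1_1 and at 89.8, 88.6 and 87.8 in shSHCBP1_2. In shTMEM45A, ATP6V1A was at 59.1, 49.3 and 60.2 CPM in set 4 and at 48.5, 57.4 and 52.8 in set 2. ATP6V1A is the catalytic subunit, and here the order of the groups was turned round, with NC highest. It fell by 0.22 ± 0.06 (edgeR adjusted p = 0.00364) in shSHCBP1, a call lost with total-count scaling, where the change was -0.07, and by 0.96 ± 0.06 (edgeR adjusted p = 2.2e-15) in shTMEM45A. ATP6V1H reached 29.5, 32.3 and 30.1 CPM in the NC libraries, 35.4, 34.6 and 37.4 in those of shSHCBP1_1 and 38.7, 36.3 and 39.8 in those of shSHCBP1_2. For ATP6V1H the values were 62.3, 46.8 and 54.6 CPM in shTMEM45A set 4 and 54.2, 54.4 and 51.7 in set 2. ATP6V1H, the regulatory subunit, was higher in all hairpin libraries than in NC, with changes of 0.27 ± 0.07 (edgeR adjusted p = 0.00553) and 0.82 ± 0.07 (edgeR adjusted p = 2.7e-11). ATP6V1C1 stood at 39.0, 40.5 and 36.7 CPM in NC, at 37.0, 38.6 and 40.2 in shSHCBP1_1 and at 46.3, 44.8 and 47.2 in shSHCBP1_2. In shTMEM45A, ATP6V1C1 was at 38.8, 39.2 and 37.0 CPM in set 4 and at 42.2, 52.6 and 43.6 in set 2. For ATP6V1C1, a stator subunit, the ranges of NC and the pooled libraries of either target overlapped, and the changes of 0.12 ± 0.07 (edgeR adjusted p = 0.182) and 0.12 ± 0.07 (edgeR adjusted p = 0.114) did not pass. ATP6V1D and ATP6V1G1, of the rotor and the outer stalks, rose in both comparisons, by 0.19 ± 0.07 and 0.18 ± 0.06 in shSHCBP1 and by 0.66 ± 0.07 and 0.75 ± 0.06 in shTMEM45A. Both shSHCBP1 calls were lost without NC replicate 1, without NC replicate 3 and with RLE scaling, and that of ATP6V1D also without any 1 of 5 shSHCBP1 libraries. ATP6V1F, of the central stalk, rose by 0.86 ± 0.05 (edgeR adjusted p = 6.1e-16) in shTMEM45A and had -0.07 ± 0.05 (edgeR adjusted p = 0.291) in shSHCBP1. ATP6V1B2, the non-catalytic partner of ATP6V1A in the head, had -0.04 ± 0.06 (edgeR adjusted p = 0.643) and 0.08 ± 0.06 (edgeR adjusted p = 0.189). Neither accessory subunit passed in either comparison: ATP6AP1 had log2 changes of -0.08 ± 0.04 and 0.09 ± 0.04, and ATP6AP2, also known as the prorenin receptor, -0.12 ± 0.06 and 0.01 ± 0.06.

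Proteins of the lysosomal membrane and of cholesterol export made up 5 members. In shSHCBP1 only LAMP2 passed, and it was lower; in shTMEM45A 3 rose and 2 fell. LAMP2 reached 151, 162 and 142 CPM in the NC libraries, 138, 127 and 138 in those of shSHCBP1_1 and 121, 124 and 125 in those of shSHCBP1_2. For LAMP2 the values were 89.4, 91.9 and 90.8 CPM in shTMEM45A set 4 and 94.8, 86.1 and 90.8 in set 2. LAMP2, a major membrane glycoprotein needed for fusion with autophagosomes, had NC highest and the shTMEM45A libraries lowest, without overlap. It fell by 0.24 ± 0.05 (edgeR adjusted p = 0.000301) in shSHCBP1, a call lost with total-count scaling, where the change was -0.08, and by 0.74 ± 0.05 (edgeR adjusted p = 9.2e-15) in shTMEM45A. LAMP1 stood at 102, 97.6 and 105 CPM in NC, at 103, 109.5 and 103 in shSHCBP1_1 and at 99.3, 103 and 107 in shSHCBP1_2. In shTMEM45A, LAMP1 was at 127, 117 and 123 CPM in set 4 and at 125, 130.1 and 132 in set 2. LAMP1, its close relative, was above NC in every shTMEM45A library, with 0.31 ± 0.05 (edgeR adjusted p = 1.3e-06), and overlapped NC in shSHCBP1, with 0.04 ± 0.05 (edgeR adjusted p = 0.622). CD63 reached 211, 188 and 209 CPM in the NC libraries, 204, 206 and 207 in those of shSHCBP1_1 and 201, 199 and 199.7 in those of shSHCBP1_2. For CD63 the values were 563, 576 and 592 CPM in shTMEM45A set 4 and 541, 613 and 589 in set 2. CD63 is a tetraspanin of late endosomes and lysosomes, and its shTMEM45A libraries lay well above all others, which overlapped. It rose by 1.51 ± 0.04 (edgeR adjusted p = 2.6e-23) in shTMEM45A, whereas the value in shSHCBP1 was 0.00 ± 0.04 (edgeR adjusted p = 0.993). NPC1 stood at 53.4, 53.3 and 55.9 CPM in NC, at 51.5, 51.8 and 45.6 in shSHCBP1_1 and at 51.2, 55.8 and 51.5 in shSHCBP1_2. In shTMEM45A, NPC1 was at 20.2, 18.5 and 20.2 CPM in set 4 and at 15.3, 16.5 and 13.7 in set 2. NPC1 carries cholesterol out of the lysosomal membrane, and NC and shSHCBP1 overlapped while all shTMEM45A libraries were far lower. NPC1 fell by 1.65 ± 0.07 (edgeR adjusted p = 1.1e-19) in shTMEM45A, and the shSHCBP1 value was -0.08 ± 0.06 (edgeR adjusted p = 0.357). NPC2, the soluble protein that hands cholesterol to NPC1, went the other way in shTMEM45A, from 42.7 ± 3.46 CPM in NC (SD, n = 3) to 93.7 ± 9.74 in set 4 and 96.1 ± 3.90 in set 2, a log2 change of 1.15 ± 0.07 (edgeR adjusted p = 6.4e-16). In shSHCBP1 NPC2 had -0.03 ± 0.07 (edgeR adjusted p = 0.771).

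Among 8 lysosomal enzymes and cofactors, 6 fell and none rose in shSHCBP1, with a median log2 change of -0.25. In shTMEM45A 5 rose and 3 fell, with a median of 0.21. HEXA reached 42.2, 39.1 and 40.5 CPM in the NC libraries, 28.5, 32.0 and 29.2 in those of shSHCBP1_1 and 24.4, 25.6 and 28.8 in those of shSHCBP1_2. For HEXA the values were 38.2, 33.6 and 31.9 CPM in shTMEM45A set 4 and 36.4, 34.5 and 42.4 in set 2. HEXA, the alpha subunit of the enzyme that degrades ganglioside GM2, was lower in each shSHCBP1 library than in any NC library, and the shTMEM45A libraries overlapped NC. HEXA fell by 0.54 ± 0.08 (edgeR adjusted p = 2.4e-06) in shSHCBP1. In shTMEM45A it fell by 0.17 ± 0.08 (edgeR adjusted p = 0.0453), a call lost without NC replicate 1, without NC replicate 3 and without set 2 replicate 1 or 2 or either of 2 set 4 libraries. HEXA-AS1, antisense to it, held 1.0% as many counts, and the library kit did not mark strand. CTSD stood at 65.5, 71.1 and 73.9 CPM in NC, at 60.5, 59.2 and 62.4 in shSHCBP1_1 and at 62.4, 65.6 and 61.7 in shSHCBP1_2. In shTMEM45A, CTSD was at 239.9, 226 and 194 CPM in set 4 and at 243, 214 and 240.5 in set 2. CTSD, the aspartic protease cathepsin D, overlapped between NC and shSHCBP1 and was high in every shTMEM45A library. It rose by 1.69 ± 0.06 (edgeR adjusted p = 5.4e-21) in shTMEM45A. Its fall by 0.18 ± 0.06 (edgeR adjusted p = 0.024) in shSHCBP1 was lost without NC replicate 2, NC replicate 3, shSHCBP1_1 replicate 2 or shSHCBP1_2 replicate 3, and with total-count scaling. PSAP reached 587, 574 and 589.7 CPM in the NC libraries, 437, 448 and 442 in those of shSHCBP1_1 and 419.8, 421 and 419 in those of shSHCBP1_2. For PSAP the values were 506, 498 and 516 CPM in shTMEM45A set 4 and 459, 429 and 494 in set 2. PSAP is the precursor of the saposins, which present lipids to hydrolases, and NC was highest in both comparisons without overlap. It fell by 0.44 ± 0.04 (edgeR adjusted p = 1.4e-10) and 0.27 ± 0.04 (edgeR adjusted p = 9.1e-08). GAA, which degrades glycogen, also fell in both, by 0.29 ± 0.05 (edgeR adjusted p = 8.6e-05) in shSHCBP1 and by 0.22 ± 0.05 (edgeR adjusted p = 0.000585) in shTMEM45A. GLA, the alpha-galactosidase, fell by 0.21 ± 0.04 (edgeR adjusted p = 8.2e-05) in shSHCBP1 and rose by 0.89 ± 0.04 in shTMEM45A, and CTSB, a cysteine protease, fell by 0.29 ± 0.05 (edgeR adjusted p = 2.5e-05) and rose by 0.14 ± 0.05. The rise of CTSB was lost without NC replicate 2, and with total-count scaling its value in shTMEM45A was -0.05, and the fall of GLA in shSHCBP1 did not pass. CTSL and CTSA, another cysteine protease and the protector of other hydrolases, rose in shTMEM45A by 0.54 ± 0.05 and 0.28 ± 0.06. In shSHCBP1 CTSL and CTSA had -0.10 ± 0.05 and -0.01 ± 0.06, neither past the threshold.

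**Figure D2:**
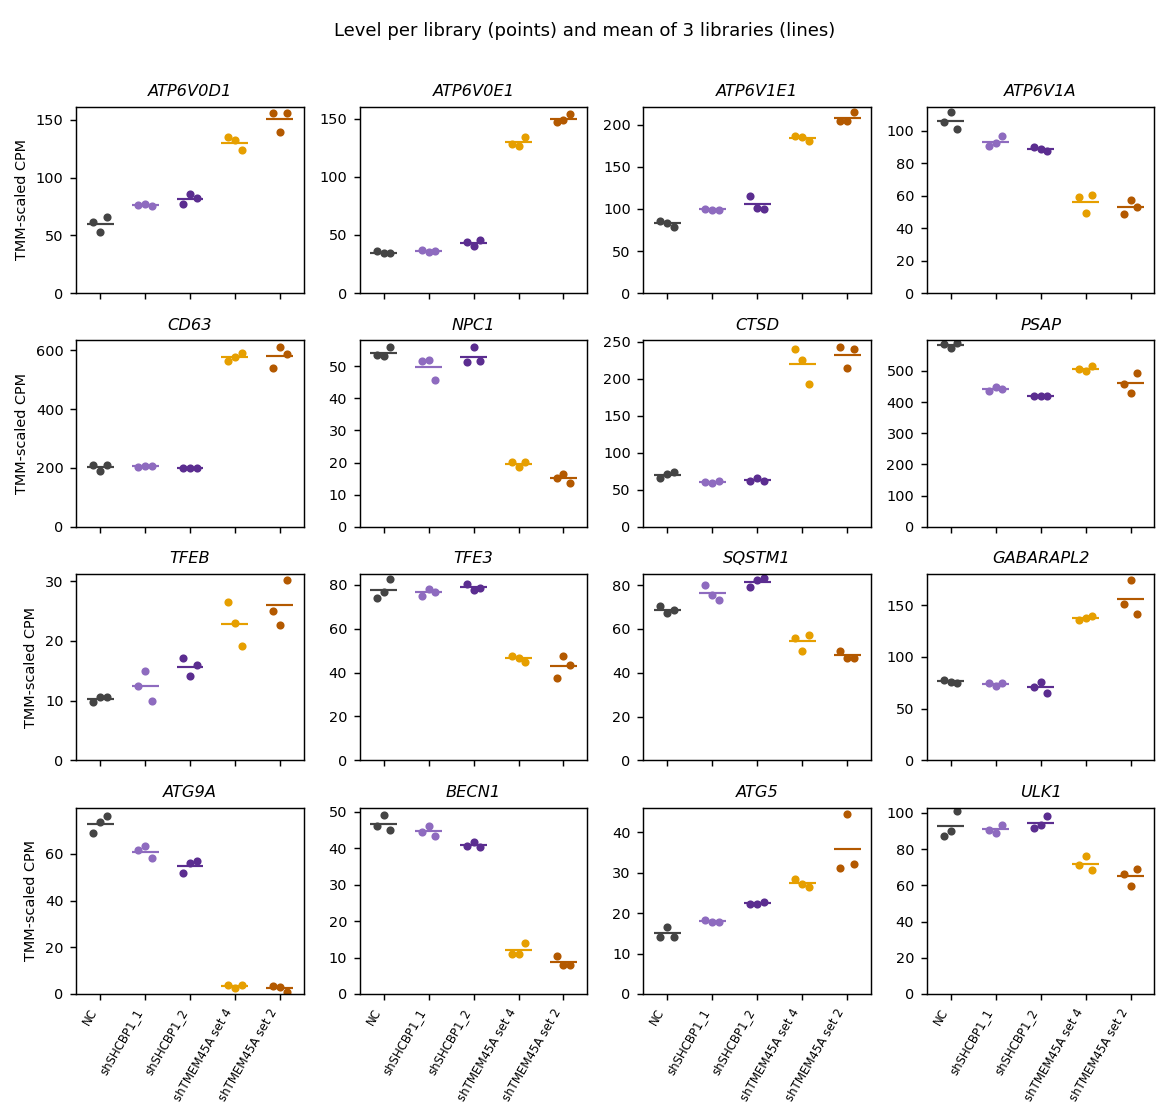
TMM-scaled CPM of 16 members in each library (points) with the mean of 3 libraries (lines); each panel has its own vertical scale from 0. The 6 shTMEM45A libraries of ATG9A, BECN1 and NPC1 lie far below the others, those of ATP6V0E1, CD63 and CTSD far above, and ATG5 has 1 high library in set 2.

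The pair of TFEB family members moved apart in shTMEM45A. TFEB stood at 9.72, 10.6 and 10.6 CPM in NC, at 12.5, 15.0 and 9.87 in shSHCBP1_1 and at 17.1, 14.1 and 16 in shSHCBP1_2. In shTMEM45A, TFEB was at 26.5, 23 and 19.2 CPM in set 4 and at 25.1, 22.7 and 30.2 in set 2. For TFEB the shTMEM45A libraries lay above all others, and 1 shSHCBP1_1 library lay within the NC range. Its log2 change was 1.24 ± 0.13 (edgeR adjusted p = 3.5e-10) in shTMEM45A and 0.44 ± 0.13 (edgeR adjusted p = 0.00962) in shSHCBP1, the latter lost without NC replicate 1. TFE3 reached 74.0, 76.7 and 82.7 CPM in the NC libraries, 74.9, 78.3 and 76.7 in those of shSHCBP1_1 and 80.4, 77.6 and 78.8 in those of shSHCBP1_2. For TFE3 the values were 47.7, 46.7 and 45.0 CPM in shTMEM45A set 4 and 37.5, 47.8 and 43.3 in set 2. TFE3 overlapped between NC and shSHCBP1, with 0.00 ± 0.06 (edgeR adjusted p = 0.997), and every shTMEM45A library was below them. It fell by 0.80 ± 0.06 (edgeR adjusted p = 3.0e-13). With total-count scaling TFE3 was called higher in shSHCBP1, at 0.15. These are transcript levels; where the proteins were in the cell was not measured.

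The ATG8 family and SQSTM1, the receptor p62 that links ubiquitinated cargo to ATG8 proteins, gave 1 rise and 1 fall of 5 in shSHCBP1, and 2 rises and 3 falls in shTMEM45A. SQSTM1 stood at 70.5, 67.1 and 68.4 CPM in NC, at 80.1, 75.6 and 73.2 in shSHCBP1_1 and at 79.0, 82.5 and 83.2 in shSHCBP1_2. In shTMEM45A, SQSTM1 was at 56.0, 49.8 and 57.0 CPM in set 4 and at 50.1, 46.7 and 46.8 in set 2. SQSTM1 was highest in shSHCBP1 and lowest in shTMEM45A, with NC between them and no overlap. It rose by 0.20 ± 0.06 (edgeR adjusted p = 0.00559) in shSHCBP1, a call lost with RLE scaling and in DESeq2, where the change was 0.13, and fell by 0.43 ± 0.06 (edgeR adjusted p = 4.4e-08) in shTMEM45A. GABARAPL1 reached 78.8, 69.7 and 81.7 CPM in the NC libraries, 69, 66.4 and 66.1 in those of shSHCBP1_1 and 68.9, 68.9 and 66.0 in those of shSHCBP1_2. For GABARAPL1 the values were 62.6, 62.6 and 64.0 CPM in shTMEM45A set 4 and 47.0, 51.7 and 48.3 in set 2. GABARAPL1 was highest in NC, without overlap. The fall by 0.18 ± 0.05 (edgeR adjusted p = 0.0106) in shSHCBP1 did not pass without NC replicate 1 or NC replicate 3, nor with total-count scaling, and in shTMEM45A it fell by 0.47 ± 0.06 (edgeR adjusted p = 8.4e-09). GABARAPL2 stood at 78.0, 75.8 and 74.8 CPM in NC, at 74.7, 71.8 and 74.7 in shSHCBP1_1 and at 70.6, 76.1 and 65.5 in shSHCBP1_2. In shTMEM45A, GABARAPL2 was at 136, 138 and 139 CPM in set 4 and at 151, 175 and 141 in set 2. GABARAPL2 was above all others in every shTMEM45A library, with 0.94 ± 0.06 (edgeR adjusted p = 3.5e-15), and overlapped NC in shSHCBP1, with -0.08 ± 0.06 (edgeR adjusted p = 0.334). GABARAP reached 1.94, 2.31 and 1.94 CPM in the NC libraries, 1.60, 1.35 and 1.26 in those of shSHCBP1_1 and 0.837, 1.95 and 0.703 in those of shSHCBP1_2. For GABARAP the values were 2.06, 1.03 and 0.916 CPM in shTMEM45A set 4 and 0.945, 1.06 and 1.45 in set 2. GABARAP itself rested on 11 to 33 counts per library, and its groups overlapped. It fell by 0.73 ± 0.33 (edgeR adjusted p = 0.0469) in shTMEM45A, a call lost without any 1 of the NC or shSHCBP1_1 libraries, without set 2 replicate 1 or 2 and without either of 2 set 4 libraries, and had -0.68 ± 0.33 (edgeR adjusted p = 0.113) in shSHCBP1. MAP1LC3B, the LC3 protein used as the common marker of autophagosomes, went from 105 ± 5.08 CPM in NC (SD, n = 3) to 141 ± 2.16 and 147 ± 9.19 in set 4 and set 2, a change of 0.45 ± 0.05 (edgeR adjusted p = 9.6e-10). Its near-copy MAP1LC3B2 held 2.98% as many counts, and the authors' counting may divide reads between them. In shSHCBP1 MAP1LC3B had -0.03 ± 0.05 (edgeR adjusted p = 0.645).

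The initiation genes included the most strongly changed member. Of 6, 1 fell and none rose in shSHCBP1, with a median log2 change of -0.04, and 2 rose and 4 fell in shTMEM45A, with a median of -0.58. ATG9A stood at 68.8, 73.8 and 76.1 CPM in NC, at 61.5, 63.2 and 58.1 in shSHCBP1_1 and at 51.9, 56.2 and 56.8 in shSHCBP1_2. In shTMEM45A, ATG9A was at 3.91, 2.56 and 3.66 CPM in set 4 and at 3.34, 3.03 and 0.944 in set 2. ATG9A was highest in NC, somewhat lower in each shSHCBP1 library and far below both in shTMEM45A, where the lowest library held 13 counts. It fell by 4.66 ± 0.12 (edgeR adjusted p = 4.4e-25) in shTMEM45A. In shSHCBP1 it fell by 0.33 ± 0.08 (edgeR adjusted p = 0.00295), and with total-count scaling the change of -0.18 did not pass. BECN1 reached 46.0, 49.1 and 45.1 CPM in the NC libraries, 44.5, 46.0 and 43.5 in those of shSHCBP1_1 and 40.7, 41.7 and 40.3 in those of shSHCBP1_2. For BECN1 the values were 10.9, 11.1 and 14 CPM in shTMEM45A set 4 and 10.5, 7.89 and 7.85 in set 2. BECN1 overlapped between NC and shSHCBP1_1, and all shTMEM45A libraries lay far below the other libraries. It fell by 2.19 ± 0.08 (edgeR adjusted p = 1.0e-20) in shTMEM45A, and in shSHCBP1 the value was -0.13 ± 0.07 (edgeR adjusted p = 0.195). WIPI2 stood at 109, 102 and 102 CPM in NC, at 98.7, 101 and 98.1 in shSHCBP1_1 and at 99.6, 96.5 and 99.2 in shSHCBP1_2. In shTMEM45A, WIPI2 was at 152, 146 and 141 CPM in set 4 and at 152, 158 and 142 in set 2. WIPI2, which recruits the conjugation machinery to the growing membrane, was highest in shTMEM45A without overlap, and rose by 0.51 ± 0.05 (edgeR adjusted p = 3.2e-11). Its value in shSHCBP1 was -0.08 ± 0.05 (edgeR adjusted p = 0.232). WIPI1, a related protein, fell by 0.72 ± 0.14 (edgeR adjusted p = 2.6e-05) in shTMEM45A, and so did ULK1, the kinase that starts autophagosome formation, by 0.44 ± 0.06 (edgeR adjusted p = 3.4e-08). ATG13, the partner of ULK1 in the kinase complex, rose by 0.29 ± 0.06 (edgeR adjusted p = 0.000125). In shSHCBP1 the log2 changes were 0.17 ± 0.13 for WIPI1, 0.00 ± 0.06 for ULK1 and 0.01 ± 0.06 for ATG13, none of them past the threshold.

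ATG5, ATG7 and ATG12 attach ATG8 proteins to lipid. ATG5 reached 14.2, 16.7 and 14.1 CPM in the NC libraries, 18.2, 17.8 and 17.9 in those of shSHCBP1_1 and 22.3, 22.3 and 22.7 in those of shSHCBP1_2. For ATG5 the values were 28.5, 27.3 and 26.4 CPM in shTMEM45A set 4 and 31.1, 44.6 and 32.2 in set 2. For ATG5, which is joined to ATG12 in the conjugate, the groups followed each other without overlap from NC to shTMEM45A. Its log2 change was 0.42 ± 0.10 (edgeR adjusted p = 0.00195) in shSHCBP1 and 1.07 ± 0.10 (edgeR adjusted p = 7.1e-11) in shTMEM45A. ATG7 stood at 22.6, 26.4 and 22.8 CPM in NC, at 21.1, 18.5 and 18.8 in shSHCBP1_1 and at 18.7, 19.7 and 19.9 in shSHCBP1_2. In shTMEM45A, ATG7 was at 26.0, 25.9 and 21.4 CPM in set 4 and at 17.4, 22.7 and 21 in set 2. ATG7, the activating enzyme, was lower in each shSHCBP1 library than in any NC library, and shTMEM45A overlapped NC. It fell by 0.30 ± 0.09 (edgeR adjusted p = 0.0136) in shSHCBP1, a call lost without NC replicate 2 and with total-count scaling, and had -0.10 ± 0.09 (edgeR adjusted p = 0.319) in shTMEM45A. ATG12 rose by 0.35 ± 0.06 (edgeR adjusted p = 1.3e-05) in shTMEM45A and had 0.12 ± 0.06 (edgeR adjusted p = 0.174) in shSHCBP1.

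The hairpin sets of SHCBP1 were compared with each other to see whether the members differed between hairpins. In shSHCBP1_2 against shSHCBP1_1, edgeR called 0 members, and 0.499% of all genes higher and 0.336% lower. At an unadjusted p under 0.05 there were 6 members, 5 higher and 1 lower, a count given here without its share over all genes. DESeq2 called 1 member higher and 0 lower, beside 179 of all genes higher and 198 lower. ATP6V0E1 was nearest to the threshold, with 0.25 ± 0.06 (edgeR adjusted p = 0.0607), and its sets did not overlap. Log2 differences ran from -0.27 to 0.44, with a median of 0.00. Fitted on only these groups, 5 members were called higher and 1 lower, beside 894 of all genes higher and 780 lower. The main fit called 95 of all genes higher and 64 lower.

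In shTMEM45A set 2 against set 4, 5 members were higher and 5 lower, 11.4% each way, where 1.95% of all genes were called higher and 3.32% lower. The higher members were ATG5, ATP6V1C1, ATP6V0B, ATP6V0E1 and ATP6V1E1, 4 of them pump genes, and the lower ones BECN1, NPC1, GABARAPL1, GAA and GLA. GABARAPL1 was lower in each set 2 library than in any set 4 library, with -0.36 ± 0.07 (edgeR adjusted p = 0.000927), and it alone kept its call without each library in turn and in a fit of only these groups, where the other 9 did not pass. ATG5 had 0.39 ± 0.11 (edgeR adjusted p = 0.0254). Without set 2 replicate 2, the highest of the 15 libraries, the difference was 0.20 and did not pass, and it did not pass without either of 2 set 4 libraries. The same replicate mattered for ATP6V1C1, with 0.27 ± 0.08 (edgeR adjusted p = 0.0437) and 0.16 without it, and it differed more from its partners over all genes than any other library did. The call of ATP6V1C1 was lost without any 1 of 13 libraries. ATP6V0B had 0.23 ± 0.05 (edgeR adjusted p = 0.00708), and did not pass without set 2 replicate 3 or 1 set 4 library. BECN1 and NPC1, already lower in set 4 than in NC, had -0.45 ± 0.12 (edgeR adjusted p = 0.0235) and -0.37 ± 0.09 (edgeR adjusted p = 0.0166). Without set 2 replicate 3 their differences of -0.39 and -0.31 did not pass, and each call was also lost without 2 further libraries of the 6. GLA, GAA, ATP6V0E1 and ATP6V1E1 had -0.17 ± 0.04, -0.21 ± 0.06, 0.21 ± 0.06 and 0.18 ± 0.05, and these calls were lost without any 1 of 1, 11, 3 and 13 libraries. The fit of only these groups called 44 of all genes higher and 85 lower. In the main fit each gene has 1 spread shared by all groups. Replicate pairs differed more within the shTMEM45A sets (chi-square per gene 3.563 to 8.583) than within the shSHCBP1 sets (1.715 to 2.125). The part of this in the calls was not tested.

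**Figure D3:**
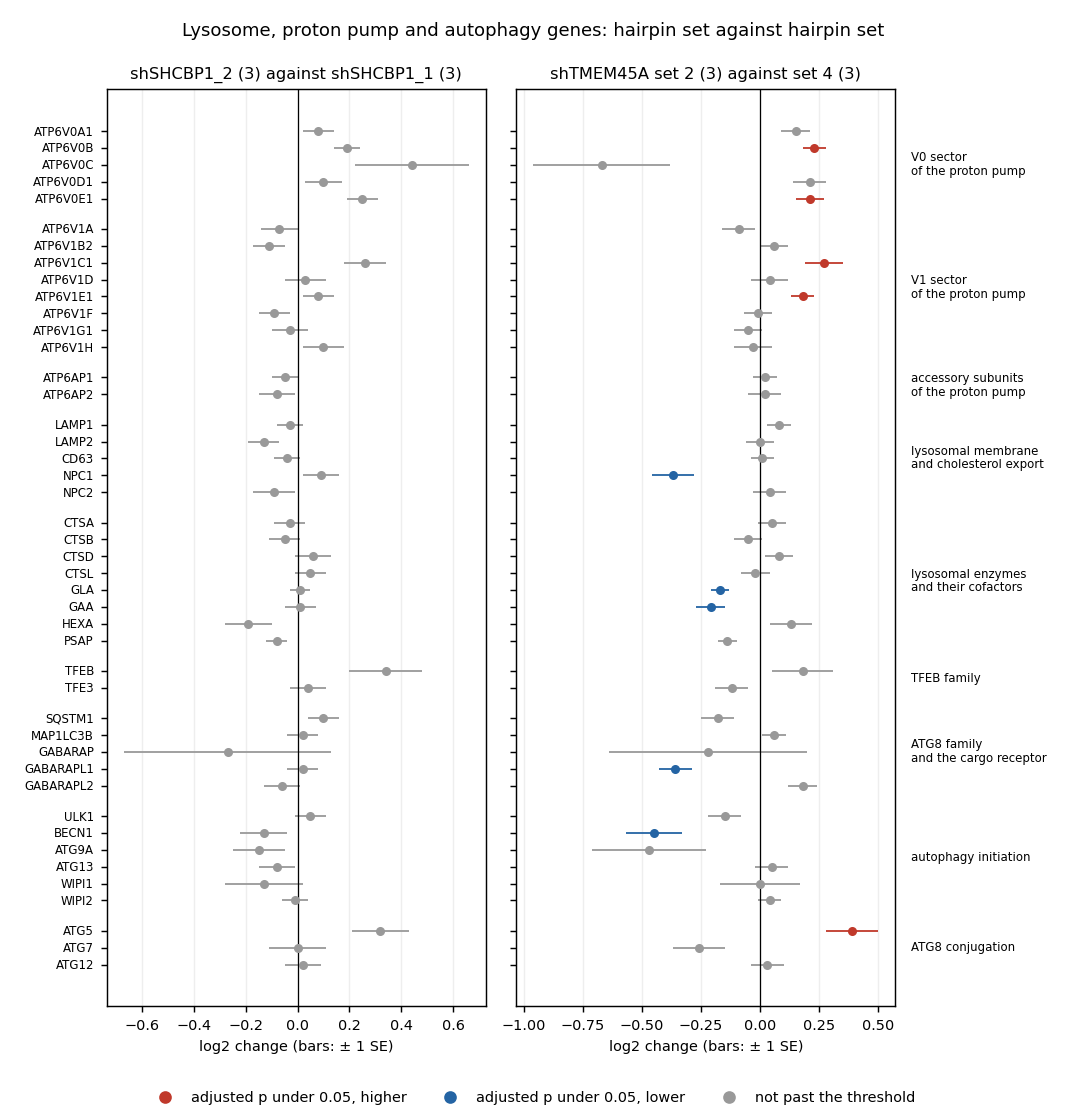
Log2 difference of each member (points, bars ± 1 SE) between the hairpin sets of 1 target: shSHCBP1_2 against shSHCBP1_1 (left) and shTMEM45A set 2 against set 4 (right); the horizontal scales differ. No member passed the threshold at left, and 5 higher and 5 lower did at right, GABARAPL1 at -0.36 among the lower ones.

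CTSB, CTSD, GLA and SQSTM1 were called in opposite directions against NC, and in each of them 1 of the calls depended on the processing, as given with each gene above. Both comparisons share the NC libraries, and picking genes by opposite calls fixes the sign of the difference between the targets, so the values of shTMEM45A minus shSHCBP1 are given as a description without a test; 35.2% of all genes were called higher in it and 44.1% lower, from which nothing is read here. The log2 difference was 1.87 ± 0.05 (SE) for CTSD, 1.1 ± 0.03 for GLA, 0.43 ± 0.04 for CTSB and -0.63 ± 0.05 for SQSTM1. The 6 shTMEM45A libraries lay above the 6 shSHCBP1 libraries for the 3 enzymes and below them for SQSTM1.

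Change against NC followed transcript length in shTMEM45A, over all genes and among the members. Lengths were those of the longest coding transcript of the mouse gene with the same symbol, which 43 of the 44 members have (97.7%), ATP6V0E1 being the exception. Across 12716 genes, which are not independent replicates, the rank correlation (Spearman's rho) of log2 change with length was -0.48 in shTMEM45A and -0.04 in shSHCBP1, and across the 43 members -0.40 and -0.23. The 20% of all genes with the shortest transcripts had a median change of 0.84 in shTMEM45A and the 20% with the longest -0.65. The members' median length was 2673 nucleotides, beside 3173 for all these genes. With the trend over all genes subtracted, the members' median in shTMEM45A went from 0.28 to 0.05. The median of the V1 sector went from 0.70 to -0.09, that of the 4 V0 genes with a length from 1.02 to 0.49, that of the enzymes from 0.21 to 0.47 and that of initiation from -0.58 to -0.32. Single members far from the trend stayed far from it: ATG9A had -4.39 after subtraction, BECN1 -1.90, NPC1 -1.20, CTSD 1.39 and NPC2 1.21. Others did not: ATP6V1F turned from 0.86 to -0.43 and ATP6V1G1 from 0.75 to -0.20. ULK1 went from -0.44 to 0.01, LAMP1 from 0.31 to 0.05 and GAA from -0.22 to -0.07. Several large rises lost most of their size: CD63 went from 1.51 to 0.53, ATP6V0B from 1.4 to 0.32 and ATP6V1E1 from 1.24 to 0.45. Some rises of longer transcripts grew instead, such as WIPI2 from 0.51 to 0.95 and ATP6V0A1 from 0.82 to 1.05. For ATP6V0E1, the largest rise, the trend could not be subtracted, since it has no length. In shSHCBP1 the enzymes' median went from -0.25 to -0.29 and the members' from -0.04 to -0.08. What produced the relation with length was not tested.

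**Figure D4:**
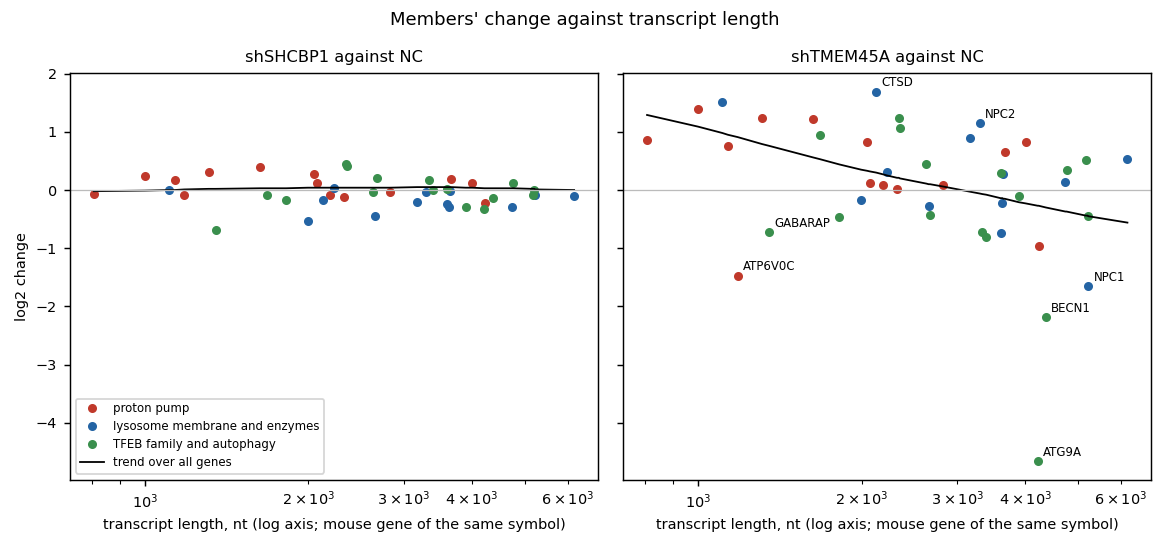
Log2 change of the 43 members with a length against transcript length in nucleotides (log axis), with the smoothed trend over all genes as a line, for shSHCBP1 (left) and shTMEM45A (right) against NC. At right the trend falls with length and members lie on both sides of it. ATG9A, ATP6V0C, BECN1, GABARAP and NPC1 lie well below and CTSD and NPC2 well above. Names are given for members over 1.1 from the trend.

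Other genes of the same pathways were read from 6 lists of 129 genes in all, of which 120 were tested. In shSHCBP1 19 of them were higher and 22 lower, and the median log2 change was 0.00, the shares being 15.8% and 18.3%, near the shares of all genes. In shTMEM45A 50 were higher and 49 lower, with a median of -0.04, and the shares, 41.7% and 40.8%, again lay near the 37.3% and 41.3% of all genes. Further lysosomal enzymes, 33 tested, gave 3 higher and 10 lower in shSHCBP1 and 12 and 10 in shTMEM45A. In shSHCBP1 MAN2B1, a lysosomal mannosidase, fell by 0.51 ± 0.06 and TPP1, a tripeptidyl peptidase, by 0.50 ± 0.06, while the sphingomyelinase SMPD1 rose by 0.52 ± 0.13 and the sialidase NEU1 by 0.37 ± 0.07. In shTMEM45A MAN2B1 fell by 1.47 ± 0.07 and IDS by 1.19 ± 0.05, and the cathepsins CTSK and CTSZ rose by 1.97 ± 0.29 and 1.33 ± 0.09. Sorting and membrane genes, 19 tested, gave 3 higher and 3 lower in shSHCBP1, and 7 and 11 in shTMEM45A, where the mannose 6-phosphate receptor M6PR, which sorts hydrolases to lysosomes, fell by 1.97 ± 0.07 and the chloride exchanger CLCN7 by 1.62 ± 0.08. OSTM1, the partner of CLCN7, rose by 0.78 ± 0.12 in shSHCBP1 and by 1.05 ± 0.12 in shTMEM45A. Of 19 tested genes of mTORC1 and its Rag control, 3 were higher and 5 lower in shSHCBP1, and 9 and 8 in shTMEM45A. There LAMTOR4 and LAMTOR2, which anchor the Rag proteins on lysosomes, rose by 2.34 ± 0.06 and 2.03 ± 0.06, and MTOR and TSC2 fell by 1.06 ± 0.06 and 0.96 ± 0.05. Of 23 further autophagy genes, 3 were higher and 2 lower in shSHCBP1, and 9 and 10 in shTMEM45A, with ATG101, which stabilises ATG13, up by 0.45 ± 0.09 and 1.36 ± 0.09. Cargo receptors and fusion genes, 19 tested, gave 6 higher and 1 lower in shSHCBP1, and 10 and 8 in shTMEM45A. VPS18, of the tethering complex HOPS, rose by 0.91 ± 0.12 and 2.19 ± 0.11, FYCO1, which carries autophagosomes along microtubules, fell by 0.60 ± 0.07 and 1.83 ± 0.08, and STX17, the SNARE of autophagosome fusion, fell by 1.77 ± 0.11 in shTMEM45A. Other pump isoforms, 7 tested, gave 1 higher and 1 lower in shSHCBP1, and 3 and 2 in shTMEM45A, where ATP6V1C2 fell by 2.47 ± 0.12. In set 2 against set 4, 1 of the 120 was higher and 4 lower.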

How the data were processed

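Per the labels' protocols, polyadenylated RNA was fragmented, copied with random primers with a kit that does not mark strand, and sequenced as paired ends. The authors deposited 2 tables of raw counts per gene symbol, unnormalized and each of 58735 rows. Which aligner, counting program and annotation they used is not given in the sources used here. Mouse build mm10 is named in the submitters' processing notes, whereas the symbols are human, so no coordinates or sequences were used. Names on more than 1 row were left out (200 names, 1768 rows). Library totals, 13780294 to 16484000 counts, set the precision: 3 counts correspond to at most 0.218 CPM before TMM scaling, a floor that covers counting error only.

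From these counts, CPM were computed with TMM scaling, and all 15 libraries entered 1 fit of group means in edgeR 4.0.16 (R 4.3.3) after filterByExpr (count minimum 10, total minimum 15). Contrasts were tested by its quasi-likelihood F test, p-values were adjusted over 19051 genes after Benjamini and Hochberg, and the threshold was 0.05. The SE was derived from the log2 change and the square root of F. The shTMEM45A and shSHCBP1 contrasts average both hairpin sets. The script was tested on simulated data with known changes. Alternatives were other scalings (RLE, upper quartile, total count), other count filters, DESeq2 1.42.0, fits of only the groups compared, each library left out, a replicate block and a length trend (locally weighted smoothing, span 0.3, statsmodels 0.14.6). All replicate pairs differed by more than sampling noise.

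The members and the lists of other genes were chosen with earlier results of these data known. Values per library are given for the largest rise and fall past the threshold in each role and target, for TFEB, TFE3, SQSTM1, LAMP1, CTSD and ATP6V1H, and for the 3 largest rises and 3 largest falls among the 10 members past it in set 2 against set 4. Of each list of other genes at most 2 rises and 2 falls per target were named. The direct contrast of shTMEM45A with shSHCBP1 was added after the values were seen.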

Additional observations from a re-analysis of the deposited data

Results flagged for a closer look

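CTSB, CTSD, GLA and SQSTM1 were called in opposite directions against NC in the 2 targets' libraries. The log2 differences, shTMEM45A minus shSHCBP1, were 0.43 for CTSB, 1.87 for CTSD, 1.1 for GLA and -0.63 for SQSTM1. Their sign follows from how the genes were picked, so they add no separate evidence of opposite directions. None of the 4 kept both calls in all alternatives. The fall of CTSD in shSHCBP1 was lost with total-count scaling and without any 1 of 4 libraries, and that of GLA with total-count scaling. The rise of SQSTM1 in shSHCBP1 was lost with RLE scaling and in DESeq2. The rise of CTSB in shTMEM45A was lost without NC replicate 2 and with no filter on low counts, and was -0.05 with total-count scaling. The shTMEM45A libraries stand in a table of their own, and its effect cannot be told apart from that of the target.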

How the results depend on the processing

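Counts of members against NC in shTMEM45A stayed within 1.5 times the reported 24 higher and 15 lower in all alternatives run, ranging over single libraries left out from 23 to 25 higher and from 13 to 15 lower. In shSHCBP1 against NC, 10 higher and 11 lower became 6 and 18 with RLE scaling, 18 and 4 with total-count scaling and 6 and 17 in DESeq2. Leaving out 1 library gave 7 to 10 higher and 9 to 12 lower. Between the shSHCBP1 sets, 0 and 0 became 2 higher with total-count scaling, 1 higher in DESeq2, 5 higher and 1 lower with only the groups compared, and 0 to 3 higher without 1 library. Over all genes, 95 higher and 64 lower became 163 and 39 with total-count scaling and 179 and 198 in DESeq2. With only the groups compared they became 894 and 780. Between the shTMEM45A sets, 5 and 5 became 2 higher with no filter on low counts, 0 higher and 1 lower with only the groups compared, and 1 to 4 higher and 3 to 5 lower without 1 library. Over all genes, 372 higher and 632 lower became 345 and 898 with no filter, and 44 and 85 with only the groups compared. Total-count scaling turned the direction in shSHCBP1 of CD63 (0.15), TFE3 (0.15) and ULK1 (0.15), and in shTMEM45A of ATP6AP1 (-0.10), ATP6AP2 (-0.19) and CTSB (-0.05). It moved the median change of all genes from -0.05 to -0.24 in shTMEM45A and from 0.01 to 0.16 in shSHCBP1; the cause was not tested. In shTMEM45A, ATG13 and CTSA did not pass with total-count scaling, HEXA and GABARAP did not pass with upper-quartile scaling or with only the groups compared, HEXA did not with a count minimum of 30, and CTSB did not with no filter. The members' median in shTMEM45A was 0.09 with total-count scaling and 0.35 with upper-quartile scaling.

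Samples of different groups that share a replicate number did not deviate together (correlations of deviations from -0.035 to 0.038 in 18 pairs, from -0.045 to 0.033 in 36 pairs of different numbers). The replicate block over the 12 libraries with numbered columns gave 10 higher and 11 lower in shSHCBP1 against NC and 0 between the shSHCBP1 sets, the same counts as those 12 libraries without a block, a setting added after seeing the data. For shTMEM45A the block could be fitted for set 2 only. The set 4 columns carry no digit that the labels tie to a library. Set 2 against NC gave 26 members higher and 13 lower with the block, and 26 and 14 in the same 12 libraries without it. In all 15 libraries it gave 24 and 13. These settings were also added after seeing the data. The counts are given to compare settings, without the share of all genes in this contrast. With both sets averaged, 37.3% of all genes were called higher against NC and 41.3% lower. Depth limits GABARAP, ATP6V0C and, in shTMEM45A, ATG9A most, each with a library of at most 20 counts.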
